A study of Xenopus tropicalis with 6 samples.

Results

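The genes described here encode ribosome assembly factors and proteins of RNA polymerase I transcription. The rule that chose them reads gene names, with a pattern that takes the utp, nop, nol, rrp, imp, tsr, gnl, riok and polr1 families and a set of further nucleolar proteins, and they had to reach a group mean of at least 1 TPM (the unit of the table, a level scaled for transcript length and library total, so that genes can be set side by side) in either group. The pattern matched 75 of the 23634 genes in the table and all 75 passed the filter, among 13382 genes that did so in all. The gene nearest to the limit was *nol4*, with means of 1.01 TPM in controls and 0.564 TPM in morphants, and no matching gene lay outside it. All 75 names occur as symbols in the RefSeq gene table of the frog.

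The 6 samples were whole embryos of the frog *Xenopus tropicalis*, Nigerian strain, cultured at 23 degrees and collected at Stage 16, a mid-neurula stage. The 3 control samples had received 10 ng of a standard control morpholino, and the 3 morphant samples had received 10 ng of antisense morpholinos that block the splicing of the *n1-src* microexon, the short exon that makes the neuronal form of the Src kinase. Control and morphant embryos shared parents, and the samples carry the numbers 1 to 3 in both groups, which are called replicate sets below. The paper describes 3 sets of injected embryos, but nothing in the labels says that they came from separate matings, so they may not be independent. The main p-values come from a fit with the set as a block. They weigh the mean change against its variation between these sets, with variances moderated by those of the other genes. A morpholino acts in all cells that inherit it, so the groups compare whole embryos and not neural tissue. Polyadenylated RNA was sequenced, so the values are levels of the mRNAs that encode assembly factors, and neither rRNA nor ribosomes were measured.

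Ribosomes are made in the nucleolus, where RNA polymerase I transcribes a long precursor of the rRNAs. Small nucleolar ribonucleoproteins (snoRNPs) modify this precursor, a large particle called the small subunit processome folds and cuts its first part, and separate sets of factors mature the large and the small subunit on the way to the cytoplasm. In vertebrate embryos the neuroepithelium and neural crest are known to be sensitive to the loss of these factors, as in Treacher Collins syndrome in humans, where *TCOF1* or subunits of the polymerase are mutated.

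Whole-series values that bear on these genes were as follows. Between 12710 and 13126 genes reached 1 TPM in a sample. The paper gives an approximate number of reads per sample, but the table holds TPM and no counts, so no counting error was computed. The *src* gene, which sums all of its isoforms, was 18.7, 25.8 and 49.2 TPM in controls 1 to 3 and 15.6, 17.3 and 34.6 TPM in morphants 1 to 3 (log2 fold change −0.44, adjusted p = 0.0398). Of 28 markers of 7 embryonic cell types, 23 were in the table and none of these was at 0 in all samples. The summed neural crest markers spanned 204 to 259 TPM in controls and 177 to 205 TPM in morphants, with 2 of 4 called lower (*snai2* and *sox10*). The 3 genes listed for the neural plate and present in the table spanned 539 to 652 TPM and 497 to 620 TPM. Of these, *sox2* was higher in all 3 sets (log2 fold change 0.12) and *sox3* lower in all 3 (−0.22), and neither was called. The row named *nrp1* was called lower (−0.82), but whether that row is a neural plate gene was not settled. No marker of the other 5 cell types was called. Of the somite and muscle markers, *actc1* was lower in all 3 sets and just missed the threshold (−0.39, adjusted p = 0.0532). The changes of *myod1* and *myf5* were −0.01 and 0.06. The somite and muscle sum spanned 3347 to 4369 TPM in controls and 2382 to 3609 TPM in morphants. In whole embryos, fewer cells of a type and less RNA per cell cannot be told apart, and the part of these shifts in the results below was not tested. Morphant 1 stood apart in that LOC108645507 and LOC100335111 held 4.89% of its TPM, against 0.193% to 0.525% in the other samples.

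In morphants 4 of the 75 genes (5.33%) were called higher and 0 lower, beside 2.62% of all genes tested called higher and 5.87% lower. With a filter of 5 TPM, which kept 72 members, 4 were called higher and 0 lower. The shares over all genes were then 3.88% higher and 7.38% lower. The 4 were *rrp1b*, *tcof1*, *lyar* and *nop58*, and each rose by between 0.26 and 0.36 on the log2 scale. The test was limma with the replicate set as a block and Benjamini-Hochberg adjustment over all 13382 genes, on log2(TPM + 0.5), so fold changes of low genes are understated. At an unadjusted p under 0.05 there were 10 genes higher (9.76% of all genes tested) and 5 lower (23.4%). The 4 calls did not survive every choice: without the block no member was called (1 of all 13382 genes, or 0.00747%, was), and without set 1 only *lyar* was called (4.16% of all genes), while without set 2 or set 3 none was (0.0523% and 0.374% of all genes). No member was called either when low genes were not filtered out (0 of all genes) or when the variances were not allowed to follow expression level (3.69% of all genes).

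Most of the 75 genes changed little in the TPM as deposited. The log2 fold change was under 0.2 in size for 63 genes (84.0%), compared with 57.0% of all genes tested, and their median was 0.02 against −0.07 over all genes tested. The 75 mRNAs are abundant, with a median level of 95.0 TPM against 10.9 TPM, and the median standard error of their fold changes was 0.063 against 0.096. Changes were positive in 43 genes (57.3%, against 37.7% of all genes tested) and negative in 32. With samples scaled to equal medians 63 were positive, beside 7354 of all 13382 genes tested. The median was then 0.12, against 0.03 over all genes. Signs and sizes of small changes thus depended on the scaling. The change of *nop56* moved from 0.16 to 0.26 and that of *nop16* from −0.18 to −0.09. Over the 4 scalings tried, 42 genes were positive throughout, 12 were negative throughout and 21 changed sign. Over all genes tested the same choice moved the share of calls that were higher from 30.8% to 58.3%. A total of 17 genes were higher in all 3 sets (17.6% of all genes tested), 13 were lower in all 3 sets (38.5%) and 45 were mixed. The values of the groups did not overlap in 3 genes higher in morphants (*rrp1b*, *utp11* and *wdr74*, beside 3.71% of all genes) and 3 genes lower (*nol4*, *nol9* and *nop16*, beside 11.3%).

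**Figure D1:**
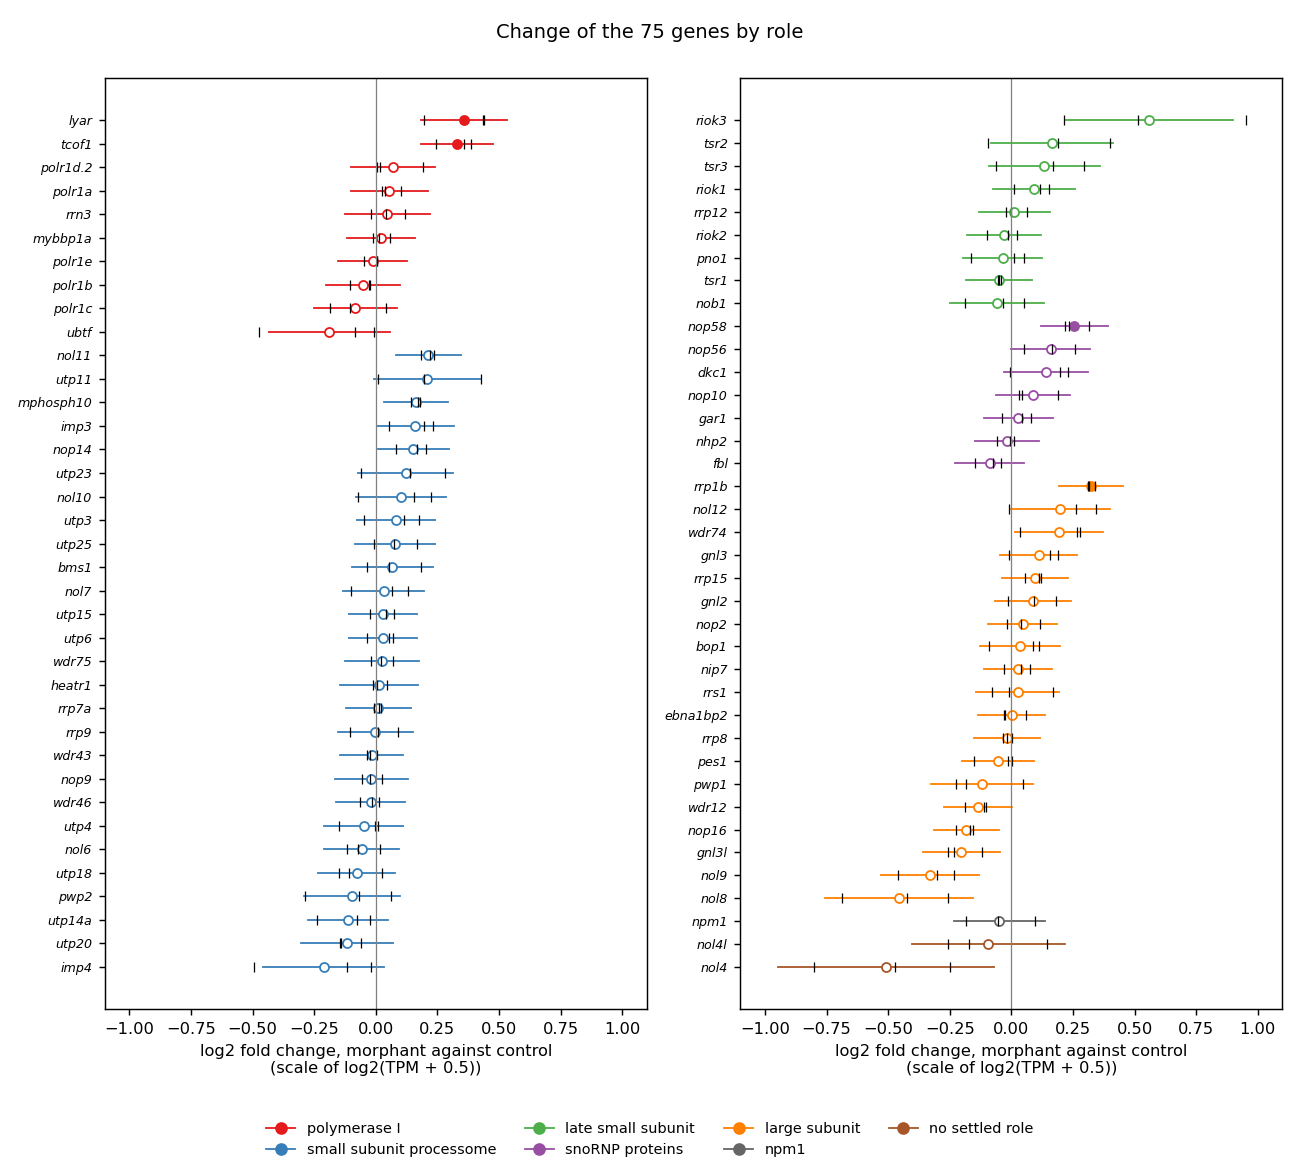
Log2 fold change of each of the 75 genes, morphant against control, on the scale of log2(TPM + 0.5), ordered by role. Circles are the fitted changes (filled at an adjusted p of at most 0.05), coloured lines their 95% confidence intervals and black ticks the changes in each of the 3 replicate sets. The 4 filled circles are *lyar*, *tcof1*, *nop58* and *rrp1b*, while the changes of *riok3*, *nol4* and *nol8* are larger but have wider intervals.

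Summed over the 75 genes, the share of total TPM was 1.61%, 1.45% and 1.42% in controls 1 to 3 and 1.59%, 1.51% and 1.51% in morphants 1 to 3. The difference between the groups averaged 0.042 percentage points with an SD of 0.053 over the 3 sets, so it was within the spread between sets. Without *npm1* the share was 1.30%, 1.15% and 1.12% in controls and 1.32%, 1.22% and 1.19% in morphants, higher in all 3 sets, by 0.051 ± 0.027 percentage points (SD, n = 3 sets). The 5 most abundant genes made up 47.3% of this sum. They were *npm1*, *nop56*, *dkc1*, *fbl* and *nop10*, so the sum says little of the less abundant factors.

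Polymerase I and its factors had 2 of 10 genes called higher and 0 lower (beside the 2.62% and 5.87% of all genes tested). Positive and negative changes numbered 6 and 4 (9 and 1 with median scaling). Of all genes tested 37.7% were positive (7354 of 13382 with median scaling). *tcof1* encodes treacle, a nucleolar phosphoprotein that promotes transcription of the rRNA genes. Its level was 98.1, 81.2 and 65.5 TPM in controls 1 to 3 and 116, 106 and 84.0 TPM in morphants 1 to 3. Each morphant sample lay above the control of its own set, but the groups overlapped because set 3 was low and set 1 high in both. The log2 fold change was 0.33 (95% confidence interval 0.18 to 0.48, adjusted p = 0.0370). Without a set it ranged from 0.30 to 0.37 with adjusted p from 0.0519 to 0.167, and without the block the adjusted p was 0.694.

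*lyar* encodes a zinc finger protein of the nucleolus that is linked to rRNA transcription and processing in human cells. It was 252, 151 and 103 TPM in controls 1 to 3 and 289, 205 and 140 TPM in morphants 1 to 3. The order of the sets was the same in both groups, and the difference between sets 1 and 3 of the controls was 2.45-fold. That spread between sets was larger than the change within any set, which was 0.20, 0.44 and 0.44 on the log2 scale. The fitted change was 0.36 (0.18 to 0.53, adjusted p = 0.0411), with adjusted p from 0.0375 to 0.184 when a set was left out. The no-block standard error was 0.379 in place of 0.070, and the adjusted p was then 0.839.

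The subunits of the polymerase itself moved little. *polr1a* and *polr1b* encode its largest subunits, and their log2 fold changes were 0.06 and −0.05. *polr1c* and *polr1d.2*, whose products are shared with RNA polymerase III, had changes of −0.08 and 0.07, and *polr1e* had −0.01. The widest 95% confidence intervals of the 5 subunit genes were those of *polr1d.2* (−0.10 to 0.24) and *polr1c* (−0.25 to 0.08). *polr1b* and *polr1c* turned positive with median scaling, at 0.04 and 0.01, and *polr1e* at 0.08. Among the initiation factors, *rrn3*, which recruits the polymerase to the promoter, was 17.5, 16.8 and 17.4 TPM in controls and 18.0, 18.3 and 17.2 TPM in morphants. With the log2 values of the control and morphant of a set averaged, its range over the sets was the smallest of all 75 genes. *ubtf*, which encodes the upstream binding factor that keeps rRNA genes open, was 105, 121 and 165 TPM in controls and 105, 114 and 119 TPM in morphants. Set 3 alone carried most of its difference, with changes of −0.01, −0.09 and −0.47 in sets 1 to 3, and it was not called (log2 fold change −0.19, adjusted p = 0.239). *mybbp1a* had a change of 0.02.

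**Figure D2:**
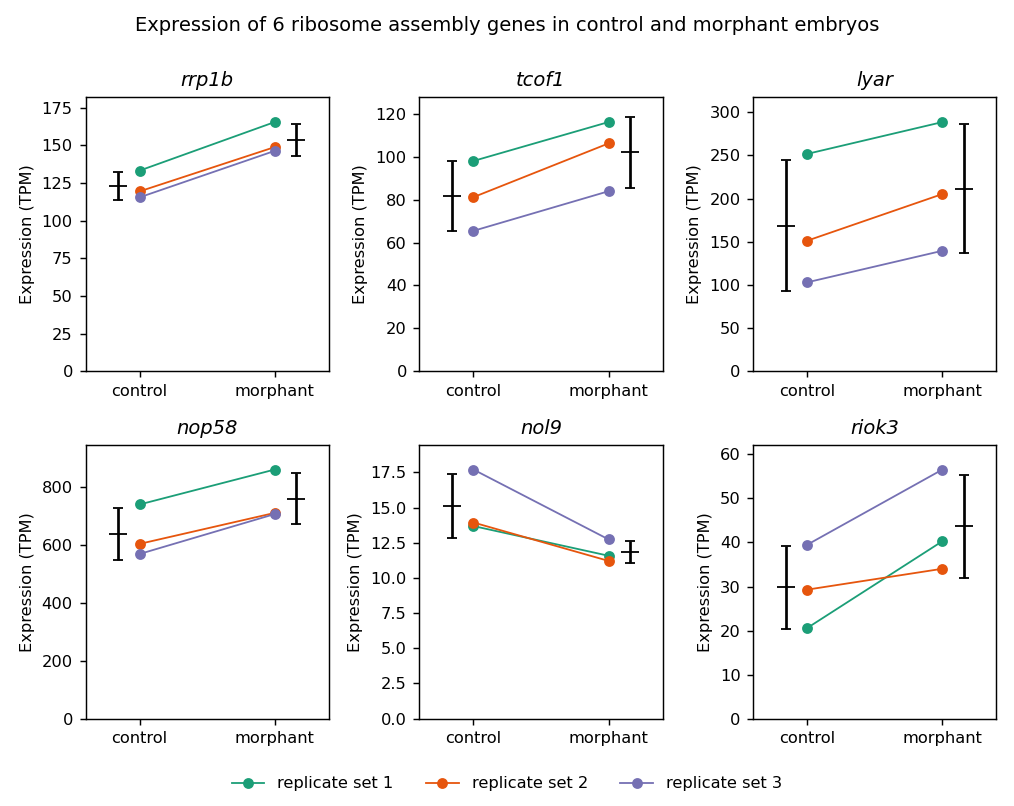
Expression in TPM of the 4 genes called higher and of *nol9* and *riok3*, which were not called, in control and morphant samples. Coloured points joined by a line are the 2 samples of a replicate set, and black bars are group means ± SD (n = 3). Lines rise in every set for *rrp1b*, *tcof1*, *lyar*, *nop58* and *riok3* and fall in every set for *nol9*, while the 2 groups overlap in all of them except *rrp1b* and *nol9*.

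The small subunit processome held the most members, 27. Of these limma called 0 in either direction, beside 2.62% of all genes tested called higher and 5.87% lower. At an unadjusted p under 0.05 there were 4 higher and 0 lower, beside 9.76% and 23.4%. Positive and negative changes numbered 16 and 11 (23 and 4 with median scaling). Of all genes tested 37.7% were positive (7354 of 13382 with median scaling). The smallest p belonged to *nol11*, a subunit of the part of the processome that also supports rRNA transcription. Its level was 119, 95.5 and 82.0 TPM in controls 1 to 3 and 135, 112 and 95.6 TPM in morphants 1 to 3. It was higher within each set by 0.18, 0.24 and 0.22 on the log2 scale (fitted change 0.21, adjusted p = 0.0634), and it passed the threshold only with median scaling (0.31, adjusted p = 0.0380). The other members at an unadjusted p under 0.05 were *mphosph10* (0.16, adjusted p = 0.0984), *imp3* (0.16, adjusted p = 0.140) and *nop14* (0.15, adjusted p = 0.134), which encode partners of the U3 snoRNP in yeast and human cells.

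*utp11* was 101, 98.5 and 82.9 TPM in controls 1 to 3 and 102, 113 and 112 TPM in morphants 1 to 3. The groups did not overlap, but by 0.55 TPM only, since its change was 0.01 in set 1 and 0.43 in set 3 (fitted 0.21, adjusted p = 0.163). *imp4*, whose protein binds IMP3 and MPP10 in 1 complex, went the other way from its partners. It was 262, 213 and 178 TPM in controls 1 to 3 and 241, 210 and 126 TPM in morphants 1 to 3, which is a fall of 0.50 in set 3 and of at most 0.12 in the others, and it was not called (−0.21, adjusted p = 0.198). *imp4* was the second most abundant processome gene after *utp3*, which was 265, 201 and 167 TPM in controls and 257, 228 and 181 TPM in morphants (0.08, adjusted p = 0.417). The scarcest mRNAs of the group were *heatr1*, at 23.0 and 23.2 TPM, and *utp20*, at 11.0 and 10.1 TPM on average in controls and morphants. The median level of the 27 genes was 101 TPM.

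Late small subunit factors, which act as the particle is exported and proofread, numbered 9. With limma 0 were called in either direction, beside 2.62% of all genes tested called higher and 5.87% lower. At an unadjusted p under 0.05 there were 1 higher and 0 lower, beside 9.76% and 23.4%. That 1 was *riok3*, an atypical protein kinase, which had the largest positive change of all 75 genes. It was 20.6, 29.3 and 39.5 TPM in controls 1 to 3 and 40.3, 34.0 and 56.6 TPM in morphants 1 to 3. The log2 change was 0.95 in set 1, 0.21 in set 2 and 0.51 in set 3, so its size varied by more than its mean of 0.56, and it was not called (adjusted p = 0.0603). The change was 0.09 for *riok1* and −0.03 for *riok2*, the other kinases of the family. *pno1*, the most abundant of the group and the partner of the nuclease NOB1, was 294, 251 and 247 TPM in controls and 262, 260 and 248 TPM in morphants. Its change of −0.03 became 0.06 with median scaling. *nob1*, the nuclease that makes the final cut of the small subunit rRNA, had a change of −0.06 (−0.25 to 0.13).

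The snoRNP proteins form the modification enzymes, with fibrillarin (*fbl*), *nop56* and *nop58* in the box C/D particles that methylate ribose and dyskerin (*dkc1*), *gar1*, *nop10* and *nhp2* in the box H/ACA particles that make pseudouridine. All 7 were among the 8 most abundant members, and 1 was called higher and 0 lower (beside 2.62% and 5.87% of all genes tested). *nop58* was 739, 603 and 568 TPM in controls 1 to 3 and 859, 710 and 706 TPM in morphants 1 to 3. Control 1 was above morphants 2 and 3, but every morphant sample was above its own control, by 0.22, 0.24 and 0.31 on the log2 scale. The fitted change was 0.26 (0.12 to 0.39, adjusted p = 0.0486), close to the threshold, and it had an adjusted p of 0.0604 to 0.224 with a set left out and 0.681 without the block.

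Its partner *nop56* was 1428, 1203 and 890 TPM in controls 1 to 3 and 1480, 1349 and 1065 TPM in morphants 1 to 3, also higher in every set, but it did not pass the test (0.16, adjusted p = 0.152). *fbl* was 994, 1001 and 1192 TPM in controls and 964, 905 and 1132 TPM in morphants. It was lower in all 3 sets before scaling, with a fitted change of −0.09 (adjusted p = 0.322) that became 0.01 with median scaling. In the box H/ACA particle the changes were 0.14 for *dkc1*, 0.09 for *nop10*, 0.03 for *gar1* and −0.02 for *nhp2*, the last at 0.08 with median scaling, and none was called.

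**Figure D3:**
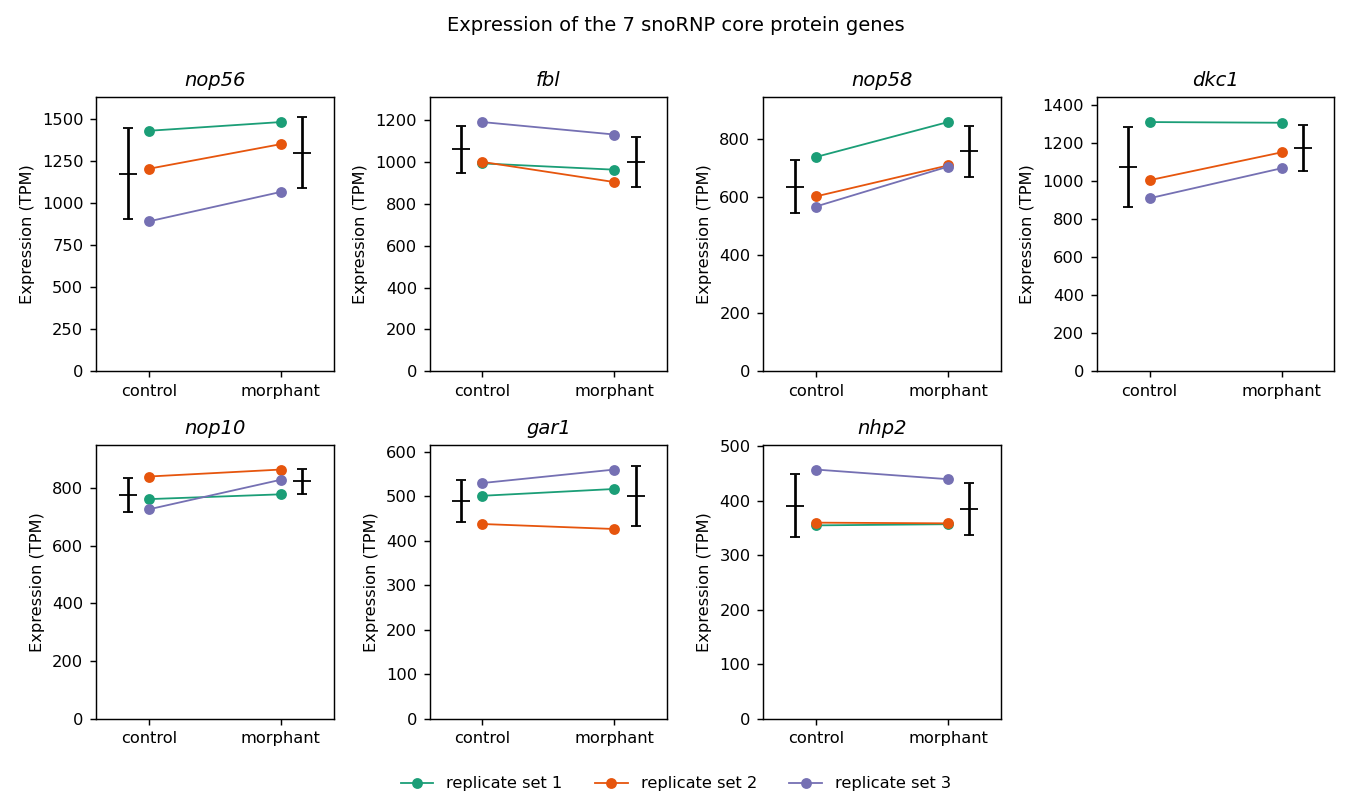
Expression in TPM of the 7 snoRNP protein genes in control and morphant samples. Coloured points joined by a line are the 2 samples of a replicate set, and black bars are group means ± SD (n = 3). *nop56*, *nop58* and *dkc1* are highest in set 1 and lowest in set 3 in both groups, whereas *fbl* and *nhp2* are highest in set 3, and only *nop58* passed the test.

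Ratios of genes of 1 particle do not depend on a factor applied to a whole sample. For 15 such ratios in 4 particles, 7 changed in the same direction in all 3 sets and 8 did not. The particles were chosen with earlier results known, and 3 sets allow no exact p under 0.25, so the ratios are given as a description. The level of *nop58* relative to *fbl* was 0.743, 0.602 and 0.477 in controls 1 to 3 and 0.891, 0.784 and 0.623 in morphants 1 to 3. It was higher within each set, by 0.34 ± 0.071 on the log2 scale (SD, n = 3 sets). *nop56* relative to *fbl* was higher by 0.25 ± 0.13, and *nop58* relative to *nop56* by 0.10 ± 0.061. *mphosph10* relative to *imp4* was higher by 0.38 ± 0.26 and *imp3* relative to *imp4* by 0.37 ± 0.33, where set 3 gave 0.68 and 0.73. The ratio of *mphosph10* to *imp3* moved by 0.0025 ± 0.098. Within the box H/ACA particle, 5 of 6 ratios changed direction between sets. In the complex of *bop1*, *pes1* and *wdr12*, which is needed for large subunit rRNA processing, only *bop1* relative to *wdr12* kept 1 direction, with 0.17 ± 0.13.

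The large subunit assembly factors numbered 19, with 1 called higher and 0 lower (beside 2.62% and 5.87% of all genes tested). There were 2 higher and 4 lower at an unadjusted p under 0.05, beside 9.76% and 23.4%. Positive and negative changes numbered 11 and 8 (13 and 6 with median scaling). Of all genes tested 37.7% were positive (7354 of 13382 with median scaling). *rrp1b*, a nucleolar protein related to yeast Rrp1, was 133, 119 and 115.5 TPM in controls 1 to 3 and 166, 149 and 146 TPM in morphants 1 to 3. Each morphant sample was above each control sample, and the changes in the sets were close to each other at 0.31, 0.32 and 0.34. It had the smallest p of the 75 genes (fitted change 0.32, 0.19 to 0.45, adjusted p = 0.0318). With a set left out the change stayed between 0.31 and 0.33 while the adjusted p ranged from 0.0560 to 0.145, and without the block it was 0.502.

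*wdr74*, which acts in the nucleolar stage of large subunit assembly, was 53.0, 46.3 and 48.1 TPM in controls 1 to 3 and 54.3, 56.2 and 58.1 TPM in morphants 1 to 3. The groups did not overlap, but the change was 0.03 in set 1 against 0.28 and 0.27 in sets 2 and 3, and it was not called (0.19, adjusted p = 0.133). *gnl3*, or nucleostemin, a GTPase that is abundant in stem and progenitor cells, was 375, 281 and 259 TPM in controls and 418, 321 and 257 TPM in morphants (0.11, adjusted p = 0.274). Its paralog *gnl3l* was 54.7, 46.6 and 30.5 TPM in controls and 46.5, 42.8 and 25.4 TPM in morphants. It was lower within each set (−0.20, adjusted p = 0.0916), and the way reads were divided between the paralogs is not given in the sources used here.

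The lower values in the group came from scarce mRNAs as well as abundant ones. *nol9*, a polynucleotide kinase that acts on the spacer between the large subunit rRNAs, was 13.7, 13.9 and 17.7 TPM in controls 1 to 3 and 11.6, 11.2 and 12.7 TPM in morphants 1 to 3. The groups did not overlap, and the change of −0.33 (−0.53 to −0.13) just missed the threshold (adjusted p = 0.0580). *nol8* was 3.16, 4.18 and 5.99 TPM in controls and 2.56, 2.99 and 3.53 TPM in morphants (−0.46, adjusted p = 0.0696). Control 1 fell between the morphant samples, so the groups overlapped. *nop16*, a nucleolar protein of the pre-large particle, was 197, 186 and 203 TPM in controls and 177, 166 and 174 TPM in morphants, without overlap, and it was not called (−0.18, adjusted p = 0.0833). With median scaling the changes of *nol9*, *nol8* and *nop16* were −0.23, −0.36 and −0.09, so their direction held while the adjusted p values were 0.105, 0.106 and 0.315.

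*npm1*, which encodes nucleophosmin, a chaperone of the nucleolus, was the most abundant member by far. It was 3020, 3037 and 2971 TPM in controls 1 to 3 and 2656, 2922 and 3174 TPM in morphants 1 to 3. Its controls differed by 1.02-fold at most, and its changes were −0.19, −0.06 and 0.10 in the sets (fitted −0.05, adjusted p = 0.680). Without set 1 the change was 0.02. *nol4* and *nol4l* match the name pattern but have no settled role in ribosome assembly, and they were the least abundant members. *nol4* was 1.24, 0.768 and 1.02 TPM in controls 1 to 3 and 0.754, 0.567 and 0.371 TPM in morphants 1 to 3. Its groups did not overlap, by 0.013 TPM, and it had the lowest change of all (−0.51, −0.95 to −0.07, adjusted p = 0.114). *nol4l* was 3.14 ± 0.66 TPM in controls and 2.91 ± 0.56 TPM in morphants (SD, n = 3, −0.09, adjusted p = 0.633).

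For most members, as for most genes tested, the replicate sets lay further apart than the groups. The 2 measures are unlike, being a range over 3 sets and an averaged difference. The range of the set means exceeded the size of the log2 fold change in 68 of 75 genes (90.7%, against 81.6% of all genes tested). The exceptions were *nol4*, *nol9*, *nop16*, *rrn3*, *rrp1b*, *utp11* and *wdr74*. Of the 75 genes, 57 (76.0%, against 69.3% of all genes) were highest in the same set in both groups. That set was set 1 in 30 genes, set 3 in 24 and set 2 in 3. *lyar*, *tcof1*, *nop56*, *nop58*, *dkc1*, *gnl3* and *nop2* were among those highest in set 1, and *fbl*, *nhp2*, *ubtf*, *polr1e*, *nip7* and *riok3* among those highest in set 3. Genes of 1 particle thus stood on both sides, as with *nop56* and *fbl*. In controls the highest sample exceeded the lowest by more than 1.5-fold in 15 genes (20.0%, against 41.1% of all genes), with *lyar* at 2.45-fold, *riok3* at 1.92-fold, *nol8* at 1.89-fold and *tsr2* at 1.88-fold. The median level differed too (95.0 TPM against 10.9 TPM over all genes tested), and its part in these shares was not tested.

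The difference between sets 3 and 1 was alike in controls and morphants. Across the 75 genes, which are not independent replicates, the Pearson correlation of the 2 differences was 0.898, and it was 0.751 across all genes tested. The 4 samples that enter it share a scaling to 1 total but no sample is in both differences. The 75 genes also had a higher median level (95.0 against 10.9 TPM) and a smaller median standard error (0.063 against 0.096). Whether this raised their correlation was not tested. For *lyar* the difference was −1.29 in controls and −1.05 in morphants, and for *gnl3l* it was −0.83 and −0.86. *ubtf* (0.65 and 0.18) and *riok3* (0.92 and 0.48) were less different in morphants.

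**Figure D4:**
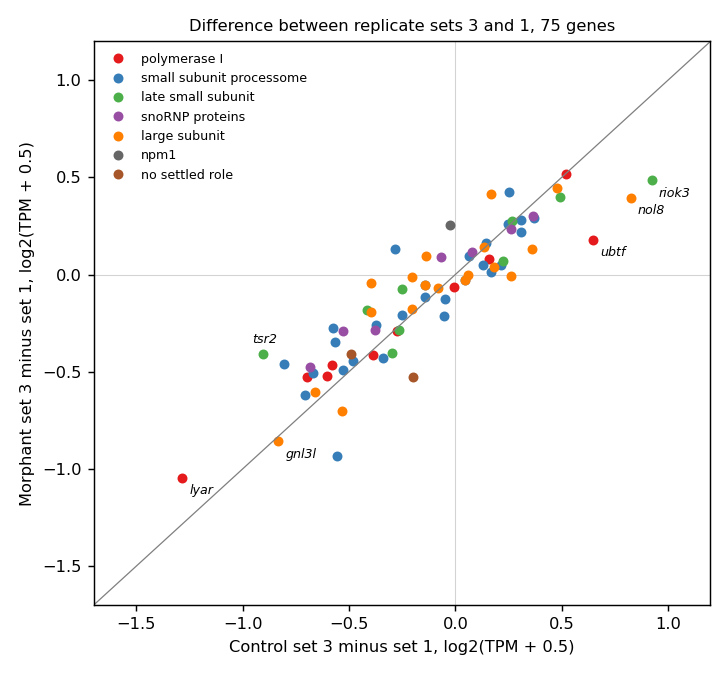
Difference between replicate sets 3 and 1 on the log2(TPM + 0.5) scale for the 75 genes, in controls (horizontal axis) and morphants (vertical axis), coloured by role. The grey diagonal marks equal differences, and most points lie near it, from *lyar* at −1.29 and −1.05 to *riok3* at 0.92 and 0.48.

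Of 100 further ribosome assembly genes, 92 were in the table and tested. Of these, 1 was called higher and 0 lower, beside 2.62% and 5.87% of all genes tested. At an unadjusted p under 0.05 there were 8 higher and 10 lower, beside 9.76% and 23.4%. Changes were positive in 45 and negative in 47 (65 and 27 with median scaling). Of all genes tested 37.7% were positive (7354 of 13382 with median scaling). The 1 call was the row named *wbscr22*, at 52.7, 49.9 and 39.0 TPM in controls 1 to 3 and 67.0, 65.8 and 48.5 TPM in morphants 1 to 3 (0.35, adjusted p = 0.0319). RefSeq lists that name as an older one of *bud23*, which is a row of its own here with a change of 0.02, so its identity is uncertain, and it missed the threshold without any 1 of the sets (adjusted p from 0.0610 to 0.150). The *wbscr22* call was also lost without the block (adjusted p = 0.655) and with low genes not filtered out (0.179). It was lost too when the variances were not allowed to follow expression level (0.0617). Rows under older names of further polymerase I subunits, *cd3eap*, *twistnb* and *znrd1*, had changes of −0.07, −0.11 and −0.11 and were not called.

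The 70 cytosolic ribosomal protein genes, whose products the assembly factors put in place, had 0 calls by limma. Over all genes tested 2.62% were called higher and 5.87% lower. At an unadjusted p under 0.05 there were 1 higher and 2 lower, beside 9.76% and 23.4%. Changes of the ribosomal protein genes were positive in 40 and negative in 30 (65 and 5 with median scaling), with a median of 0.01. Of all genes tested 37.7% were positive (7354 of 13382 with median scaling). They made up 17.4%, 14.9% and 12.6% of TPM in controls 1 to 3 and 15.6%, 15.6% and 13.8% in morphants 1 to 3.

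Of 15 genes listed as regulators of ribosome production, 1 was called higher and 2 lower, beside 2.62% and 5.87% of all genes tested. The list was broad, and a place on it does not make a gene a driver of ribosome production. The Myc proteins are known to drive the transcription of assembly factors and of rRNA. *myc* was 130, 131 and 176 TPM in controls 1 to 3 and 111, 106 and 133 TPM in morphants 1 to 3 (−0.31, adjusted p = 0.0409), and *mycn* was 42.5, 31.7 and 33.3 TPM in controls and 28.2, 25.4 and 21.8 TPM in morphants (−0.50, adjusted p = 0.0312). Both were lower in every set, and the *myc* call was lost with median scaling (adjusted p = 0.0763), quantile normalization (adjusted p = 0.0512) and without LOC108645507 and LOC100335111 (adjusted p = 0.0552). *ccng1* encodes cyclin G1, whose role in ribosome production was not tested. It was 19.7, 34.3 and 55.6 TPM in controls and 82.0, 60.2 and 123 TPM in morphants (1.32, adjusted p = 0.0319). All 3 missed the threshold without set 2 or set 3 (adjusted p from 0.0738 to 0.166) and without the block (0.485 to 0.658). They also missed it when low genes were not filtered out (adjusted p from 0.182 to 0.222). The same held when the variances were not allowed to follow expression level (0.0564 to 0.0800). Without set 1, *myc* (adjusted p = 0.0550) and *mycn* (adjusted p = 0.0631) missed it too, and *ccng1* passed (adjusted p = 0.0313). These 3 changes stood beside the values of the assembly factors given above, and a link between them was not tested.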

How the data were processed

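The table of gene-level expression in 6 whole-embryo samples of *Xenopus tropicalis* was used (the series design text names another *Xenopus* species, the sample labels and the paper name this one). The deposited values are TPM, which the authors made by trimming reads (cutadapt), quantifying them against the reference transcriptome (Salmon) and summing transcripts to genes, and every sample has the same total. The tools' versions are not given in the labels. The table also holds the authors' group means, which were not used.

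After 0.5 was added, log2 values of genes whose mean reached 1 TPM in either group were fitted with limma 3.58.1 (R 4.3.3), with the replicate number as a block and moderated variances that followed expression level. Calls were made at an adjusted p of at most 0.05. The numbers were taken to pair the samples, since the paper describes embryos of shared parents in sets. Deviations from the group means correlated at 0.721, 0.615 and 0.731 within a number and at −0.566 to −0.174 between numbers. Deviations of a group sum to 0, so the negative values follow largely from the positive ones and add no support. Shared parents and shared handling of a set cannot be told apart here. The authors' own test, sleuth, was not run.

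Members and lists were chosen with earlier results of these data known. Named genes were those called, the most abundant and the smallest p of each role, the 5 highest and 5 lowest changes and those whose groups did not overlap, 20 in all. Other members were named after their values were seen, as partners or paralogs of these or to give the values of a role group. Alternatives were pseudocounts of 0.1 and 1, no filter, a filter of 5 TPM, no block, no trend, median scaling, quantile normalization, leaving out each set, and leaving out LOC108645507 and LOC100335111. No promoter or protein sequences were used here, so a planned search for a motif was not run. A gene of the regulator list is not reported here.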

Additional observations from a re-analysis of the deposited data

How the results depend on the processing

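The 4 calls (*lyar*, *nop58*, *rrp1b* and *tcof1*) were the same genes with both other pseudocounts, the filter of 5 TPM, quantile normalization and without LOC108645507 and LOC100335111, and median scaling added *nol11* for 5. The number called was 0 with no filter on low TPM, 0 with no mean-variance trend and 0 with no replicate block, and it ranged from 0 to 1 with a set left out. The number called lower was 0 under every alternative. Without the block 1 of the 75 members had an unadjusted p under 0.05, against 1124 of all 13382 genes tested. The lowest adjusted p of a member was then 0.502. Members higher in every set numbered 51 with median scaling, 27 with quantile normalization, 27 without LOC108645507 and LOC100335111, and 21 to 32 with a set left out, where only 2 sets remained to agree. The same count over all genes is not given here for these alternatives. Median scaling raised the number of positive changes over all 13382 genes tested from 5041 to 7354, and over the 75 members from 43 to 63. Whether the 51 is particular to the members was not tested. The median change was 0.121 with median scaling. It ranged from 0.0072 to 0.0214 with a set left out. The change of *nol4l* turned to 0.0031 with median scaling and 0.022 with quantile normalization, that of *npm1* to 0.048 with median scaling and that of *pno1* to 0.062. With a set left out, *npm1* ranged from −0.121 to 0.0199 and *pno1* from −0.0785 to 0.0304. The causes were not tested. Calls over all genes numbered 350 higher and 786 lower, 126 and 368 with no trend, 533 and 381 with median scaling, 384 and 402 with quantile normalization, 0 and 0 with no filter, and 7 to 557 in all with a set left out. The paper gives an approximate number of reads per sample, but the table holds TPM and no counts, so the precision of single values was not estimated. Having 3 sets a group limits what could be called.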
